A study of Mus musculus with 7 samples.

Results

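Chemokines and their receptors were examined in mRNA from whole mouse femurs after a brain injury. Members were taken by name from the 49671 genes of the count table: protein-coding genes named Ccl, Cxcl, Cx3cl or Xcl (43 ligand entries) and Ccr, Cxcr, Cx3cr, Xcr or Ackr (21 receptors), 64 in all. Cxcl12, Cxcr4 and Cxcr2 were kept apart from the members and are given once, with other relatives. Cxcl11 matched the name pattern but is annotated as a polymorphic pseudogene, and it had 4 to 14 counts per library. All mice were labelled wild type. One group of 4 libraries (TBI) came from mice given a traumatic brain injury by controlled cortical impact, a mechanical blow to the brain, with femurs taken 3 days later. The other group of 3 libraries came from uninjured controls, whose label does not say whether they had surgery or anesthesia, so surgery and impact cannot be told apart. Strain, age and sex are not stated in the labels, and nothing there says that each library is a separate mouse, so the tests measure the spread between these libraries.

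Chemokines are small secreted proteins that bind receptors coupled to G proteins and direct the movement of leukocytes. They are named by the spacing of their first cysteines (CC, CXC, CX3C, XC). In marrow, Ccr2 and its ligands let monocytes leave for the blood, Cxcr2 and its ligands do so for neutrophils, and Cxcr3 answers interferon-induced ligands on T and NK cells. Atypical receptors (Ackr) bind chemokines without G-protein signalling and scavenge, store or transport them.

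Total counts were 15461528 to 21783534 per library, so that 1 count equalled 0.0459 to 0.0647 CPM (counts relative to the library's total) and 0 counts allowed up to 0.138 to 0.194 CPM, a bound on counting error only. The levels in CPM given for genes use totals adjusted by TMM, a scaling between libraries. All 7 osteoblast markers and all 6 erythroid markers were detected in every library. The 6 muscle markers were too, with a summed level of 14262 to 49583 CPM in controls and 17146 to 91773 CPM after TBI, highest in TBI 3 and TBI 4. TBI 1 had the highest sums of neutrophil, monocyte, T and NK cell and interferon-induced markers, and TBI 3 the lowest of all 7 libraries. In a bulk library, fewer cells of a type and less RNA per cell cannot be told apart.

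No gene of the 17144 tested passed an adjusted p of 0.05 in edgeR's quasi-likelihood test (0% higher and 0% lower; smallest adjusted p 0.423), so no member is said to have changed. Of the 64 members, 34 had enough counts to be tested, 20 ligands and 14 receptors. In edgeR 0 of these 34 passed. An unadjusted p under 0.05 was found for 4 of the 34 (11.8%), against 7.34% of all genes tested. Of these 4, Cxcl9, Cxcl10 and Ccr2 had higher estimates, a direction found at that level for 2.37% of all genes, and Ackr4 a lower one, found for 4.97%. DESeq2 also called 0 members, against 0.613% of all genes, and limma-voom 0, against 0%. Tested ligands had a median log2 fold change (TBI minus control) of 0.14, with 13 of 20 estimates higher. Tested receptors had a median of −0.13, with 6 of 14 higher. Over all genes the median was 0.03 and 54.4% of estimates were higher. The receptor median turned to 0.17 without TBI 3 and to 0.26 without TBI 3 and TBI 4, and it was 0.03 with no filter on low counts.

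Levels differed widely among the members. On a scale per exon length (RPKM, CPM per kilobase of exon), 14 ligand entries and 8 receptors had a mean of at least 1. Ccl6, Ccl9 and Cxcl14 held 60.6% of the summed mean RPKM of ligands, and Ackr1, Ccr2, Ccr1 and Ackr3 held 79.8% of that of receptors. The highest ligand was Ccl6 at a mean of 20.7 RPKM, then Ccl9 at 13.2, Cxcl14 at 10.5, Ccl11 at 3.56, Ccl8 at 3.35 and Cxcl5 at 2.87. The place of Ccl8 rests on TBI 1, at 13.1 RPKM: its mean was 0.881 CPM over the other 6 libraries, against 6.69 CPM in TBI 1. Among receptors Ackr1 stood at 21.4 RPKM, Ccr2 at 13.4, Ccr1 at 8.25, Ackr3 at 6.21 and Ackr4 at 3.63. Within single libraries several neighbours in these orders changed places, as the plot of levels per exon length shows.

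**Figure D1:**
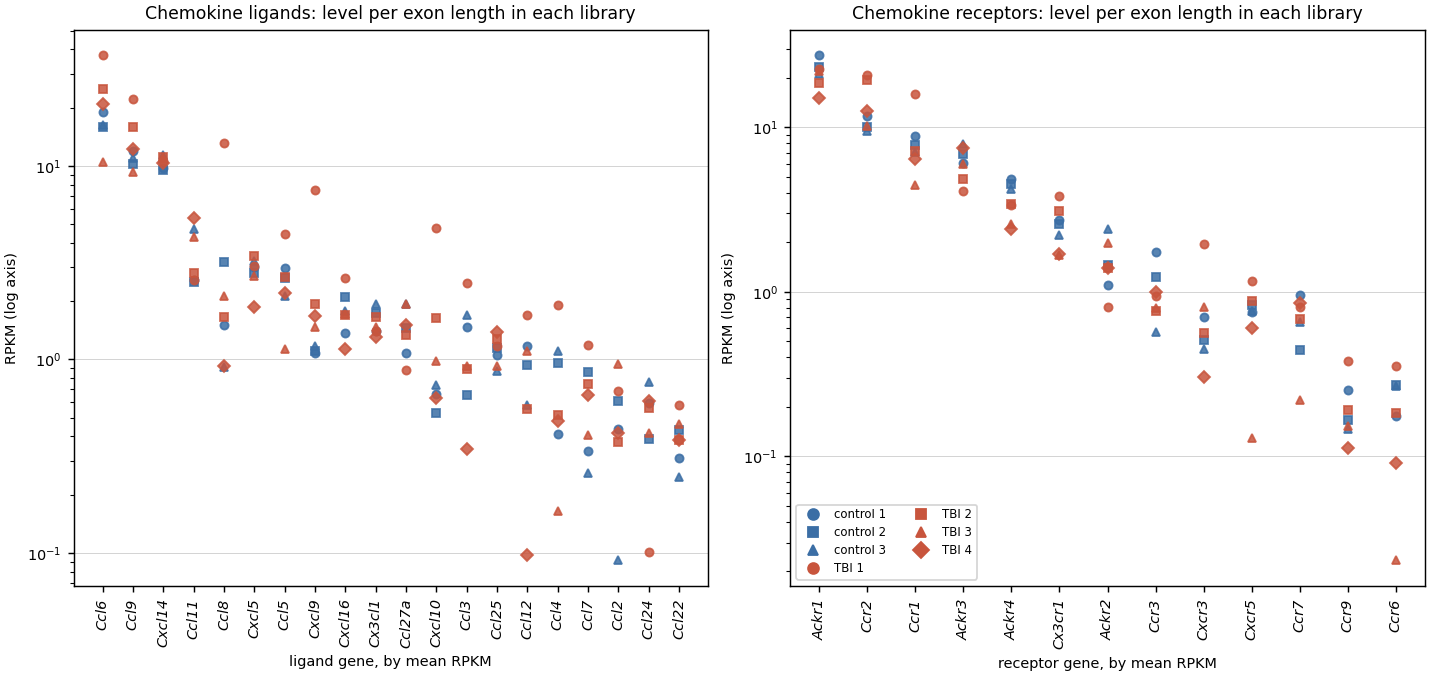
Level of each tested ligand (left) and of the tested receptors but 1 (right) in RPKM on a log axis, with genes ordered by their mean and 1 point per library (blue, controls; red, TBI; the shape gives the replicate number). TBI 1 is the highest point for 12 of 20 ligands.

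The interferon-induced ligands Cxcl9 and Cxcl10, which attract T and NK cells through Cxcr3, had the largest estimates of all tested members. Cxcl9 measured 3.25, 3.34 and 3.54 CPM in controls 1 to 3 and 22.6, 5.83, 4.45 and 5.06 CPM in TBI 1 to 4. Every TBI library lay above every control, and TBI 1 lay far above the other TBI libraries. Its log2 fold change was 1.49 ± 0.59 (SE; adjusted p = 0.658 in edgeR), and 0.60 ± 0.22 without TBI 1. Cxcl9 was the only one of 20 tested ligands with all TBI libraries above all controls, against 2.66% of all genes tested. Cxcl10 measured 1.49, 1.20 and 1.67 CPM in controls and 10.8, 3.70, 2.22 and 1.42 CPM after TBI. TBI 4 lay among the controls and the other TBI libraries above them. The log2 fold change of Cxcl10 was 1.64 ± 0.67 (adjusted p = 0.664 in edgeR) and 0.76 without TBI 1. Exons of Cxcl10 share 133 bases with Art3 on the other strand (fold change 0.32 ± 0.43), and it is not known whether strand was used in counting. Art3 had 26.9 CPM in TBI 1, its lowest value, and 89.7 CPM in TBI 4.

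Their receptor Cxcr3 was at 1.22, 0.88 and 0.78 CPM in controls and 3.39, 0.98, 1.41 and 0.53 CPM after TBI. TBI 1 was again the highest library, TBI 3 also lay above the controls and TBI 4 below them, so that the groups overlapped. The log2 fold change was 0.71 ± 0.59, and 0.01 without TBI 1. The 8 interferon-induced markers, all detected in every library, summed to 215 to 257 CPM in controls and to 726, 341, 200.5 and 232 CPM in TBI 1 to 4. The 12 T and NK cell markers, all detected in every library, summed to 30.7 to 41.1 CPM in controls and to 67.1, 44.7, 20.7 and 26.5 CPM in TBI 1 to 4. The part of either in the Cxcl9, Cxcl10 and Cxcr3 values was not tested.

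Cxcl9 (ENSMUSG00000029417) and Cxcl10 (ENSMUSG00000034855) are neighbours on the minus strand of GRCm38 chromosome 5, from 92321347 to 92328079 and from 92346638 to 92348889. Because they were high in the same library, the 250 bases before each start site are shown, from RefSeq on GRCm38.p6, 5′ to 3′ on the minus strand. Capitals mark matches, on either strand, to an interferon-stimulated response element (GAAA, any 2 bases, GAAA), a gamma-activated site (TTCNNNGAA) or a kappaB site (GGGA, any 2 bases, TTCC).
Cxcl10, chr5:92348890-92349139: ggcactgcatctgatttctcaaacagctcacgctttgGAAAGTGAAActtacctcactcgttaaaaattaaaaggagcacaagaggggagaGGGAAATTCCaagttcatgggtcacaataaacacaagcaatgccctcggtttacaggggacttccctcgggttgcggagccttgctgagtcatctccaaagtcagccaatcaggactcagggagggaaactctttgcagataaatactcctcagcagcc
Cxcl9, chr5:92328080-92328329: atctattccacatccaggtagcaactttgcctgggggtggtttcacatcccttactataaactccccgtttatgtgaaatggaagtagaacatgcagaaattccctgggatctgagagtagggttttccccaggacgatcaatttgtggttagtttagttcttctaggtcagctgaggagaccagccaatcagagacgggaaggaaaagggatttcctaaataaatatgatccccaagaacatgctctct
The Cxcl10 window held an interferon-stimulated response element whose first base lay 213 bases before the start site and a kappaB match at 159 bases, with no overlap between them. The Cxcl9 window held none of the 3 letter patterns, which says only that these letters are not in it. Of all 32851 promoter windows of this length, 2.98% held the first pattern, 7.02% the second and 1.21% the third. Of the 34 tested members 23 had a window, and some had more than 1. Among 15 windows of tested ligands these were 2, 1 and 1, and among 12 windows of tested receptors 0, 1 and 1. The other tested ligand with the first pattern was Cxcl14, at 172 bases. Ccl19, which was not tested, held it at 208 bases. A match is a description of letters, not a bound site.

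**Figure D2:**
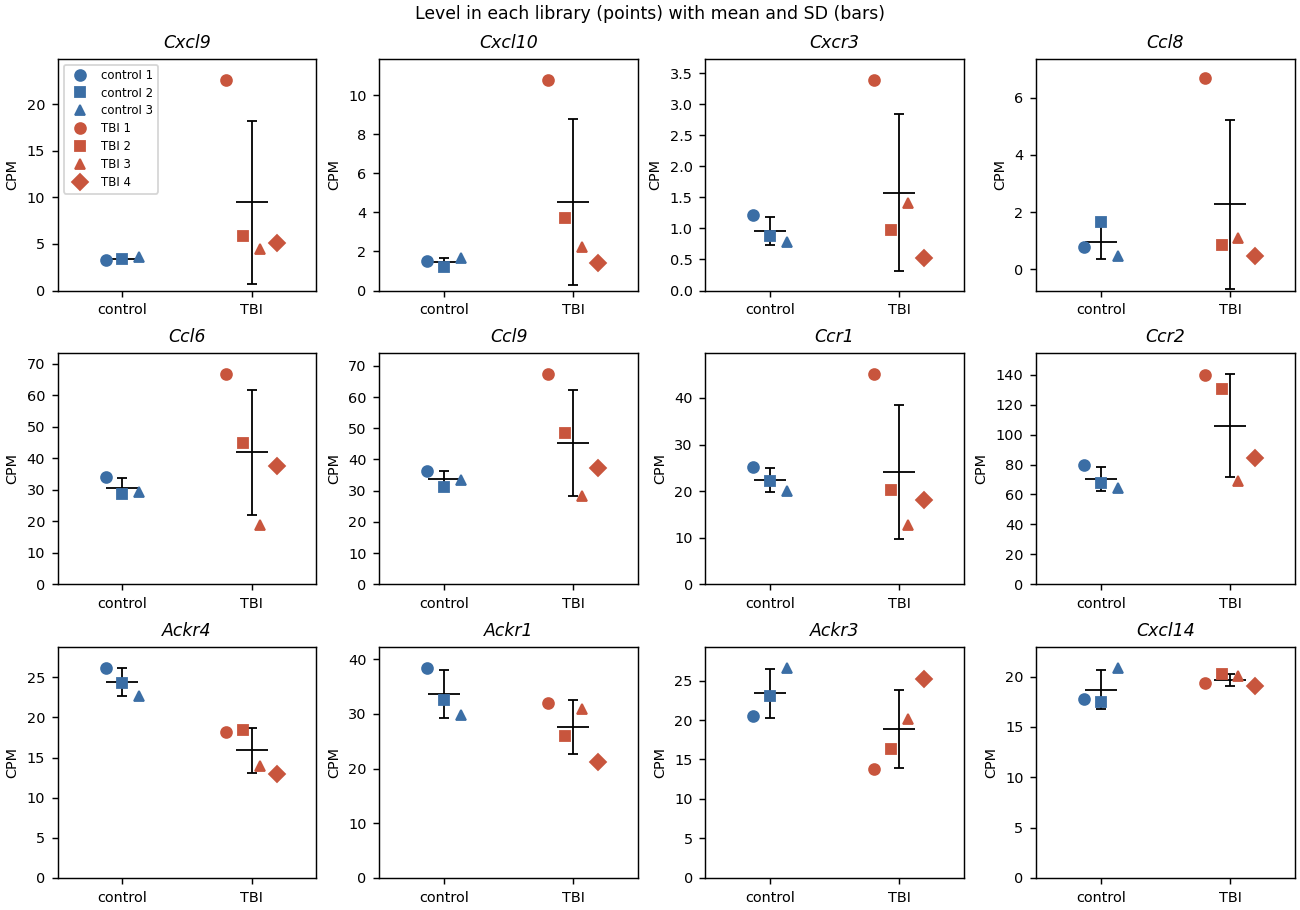
Level in CPM of 12 members in each library, with points for libraries (blue, controls; red, TBI; the shape gives the replicate number) and bars for the mean and SD of 3 control and 4 TBI libraries. TBI 1 stands at 22.6 CPM for Cxcl9, and all 4 TBI points of Ackr4 lie below the 3 control points.

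Ccl6 and Ccl9, the members with the highest ligand levels, are CC chemokines of myeloid cells that act through Ccr1. Ccl6 measured 34.1, 28.7 and 29.4 CPM in controls 1 to 3 and 66.8, 44.7, 18.8 and 37.6 CPM in TBI 1 to 4. All controls lay above TBI 3 and below the other TBI libraries. The log2 fold change was 0.45 ± 0.35 (adjusted p = 0.771 in edgeR), and 0.14 without TBI 1. Ccl9 followed the same order of libraries with 36.2, 31.3 and 33.6 CPM in controls and 67.5, 48.4, 28.2 and 37.2 CPM after TBI (0.43 ± 0.27; 0.17 without TBI 1). Ccl3, Ccl4 and Ccl5, inflammatory ligands made by activated macrophages and lymphocytes, had estimates of −0.13 ± 0.61, −0.05 ± 0.75 and 0.03 ± 0.41, each of which changed sign when 1 or more libraries were left out. These 5 genes lie together on chromosome 11 (83525778 to 83664683), and TBI 1 was the highest library for 5 of 5.

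Their receptor Ccr1 measured 25.1, 22.2 and 20.02 CPM in controls and 45.2, 20.3, 12.7 and 18.2 CPM after TBI. Only TBI 1 lay above the controls, and TBI 3 and TBI 4 lay below them. The log2 fold change was 0.10 ± 0.38 and turned to −0.39 without TBI 1. The 11 neutrophil markers, all detected in every library, summed to 2970 to 4818 CPM in controls and to 12280.1, 8069, 2131 and 6634 CPM in TBI 1 to 4. The 12 monocyte and macrophage markers summed to 396 to 505 CPM in controls and to 752, 520, 361 and 423 CPM in TBI 1 to 4. The part of neutrophil or monocyte content in the Ccl6, Ccl9 and Ccr1 values was not tested.

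Ccr2, the receptor of inflammatory monocytes (ENSMUSG00000049103, chromosome 9, 124101950 to 124113557, plus strand), measured 79.4, 67.6 and 64.1 CPM in controls and 139.9, 131, 69.1 and 84.6 CPM in TBI 1 to 4. TBI 1, TBI 2 and TBI 4 lay above all controls and TBI 3 among them. Control libraries averaged 70.4 ± 8.04 CPM (SD, n = 3) and TBI libraries 106 ± 34.6 CPM (SD, n = 4), a log2 fold change of 0.59 ± 0.25 (adjusted p = 0.67 in edgeR, 0.499 in DESeq2). It kept its sign when each library was left out (0.43 without TBI 1 to 0.75 without TBI 3). Ly6c2, a marker of the same monocytes, was at 92.9, 64.9 and 59.3 CPM in controls and 261, 152, 59.3 and 103 CPM after TBI. The 12 monocyte and macrophage markers summed to 396 to 505 CPM in controls and 361 to 752 CPM after TBI. Csf1r, 1 of these 12, stood at −0.12 ± 0.22. The part of monocyte content in the Ccr2 value was not tested.

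The Ccr2 ligands Ccl2, Ccl7 and Ccl12 had 81, 73 and 68 counts over all 7 libraries, and estimates of 0.69 ± 0.60, 0.67 ± 0.55 and −0.05 ± 0.70. Ccl8, a relative of these that in mice is known to act on Ccr8, measured 0.77, 1.64 and 0.47 CPM in controls and 6.69, 0.85, 1.08 and 0.47 CPM after TBI. The TBI libraries other than TBI 1 lay within the range of the controls. Its log2 fold change of 1.28 ± 0.93 became −0.23 without TBI 1. Ccr8 itself had 12 counts in all, too few to test: 9 in TBI 1, 2 in TBI 2, 1 in TBI 3 and 0 in TBI 4 and each control. Ccl11, the eotaxin that attracts eosinophils through Ccr3 and lies in the same block of chromosome 11 (82035571 to 82305690), was at 2.80, 2.71 and 5.11 CPM in controls and 2.78, 3.02, 4.66 and 5.85 CPM after TBI. TBI 4 was the highest library and the groups overlapped (0.20 ± 0.35). Ccl24, a further eotaxin, measured 0.77, 0.50 and 0.99 CPM in controls and 0.13, 0.72, 0.54 and 0.79 CPM after TBI (−0.48 ± 0.55; −0.15 without TBI 1). TBI 1 was the lowest library and the other TBI libraries lay within the controls. Ccr3 was at −0.43 ± 0.35, with 1.88 to 5.69 CPM in controls and 2.51 to 3.27 CPM after TBI. The 6 eosinophil and basophil markers summed to 41.0 to 57.0 CPM in controls and 28.6 to 105 CPM after TBI, and their part in the Ccr3 value was not tested.

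Of the member ligands that attract neutrophils through Cxcr2, Cxcl5 alone had enough counts to be tested. It stood at 5.60, 5.23 and 5.995 CPM in controls and 5.65, 6.39, 5.04 and 3.48 CPM after TBI. TBI 3 and TBI 4 lay below all controls and TBI 2 above them (−0.12 ± 0.23). Cxcl1 had 39, Cxcl3 14, Cxcl2 11 and Cxcl15 2 counts over all 7 libraries, and none of these was tested. These 5 genes share a block of chromosome 5 (90759360 to 90905938). The receptor Cxcr1 had 49 counts over all libraries and was not tested. Cxcl14, a CXC ligand of stromal and epithelial cells, had the smallest spread of the abundant ligands: 17.7, 17.5 and 20.9 CPM in controls and 19.3, 20.3, 20.1 and 19.0 CPM after TBI, with all TBI libraries inside the range of the controls (0.07 ± 0.12).

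The remaining tested ligands had estimates between −0.21 and 0.47. Cx3cl1, a membrane-bound ligand of endothelial and neural cells, was at 5.51, 6.81 and 7.61 CPM in controls and 5.52, 6.51, 5.80 and 5.11 CPM after TBI. TBI 4 was the lowest library and the groups overlapped (−0.21 ± 0.18). Its receptor Cx3cr1 was at 0.03 ± 0.30, with 10.01 to 12.4 CPM in controls and 7.59 to 17.2 CPM after TBI. Cxcl16, a membrane-bound ligand of Cxcr6, was at 0.04 ± 0.30, and Zmynd15 on the other strand shares 552 of its 3021 exon bases. Ccl25, which draws thymocytes through Ccr9, was at 0.21 ± 0.19 and shares 204 exon bases with Elavl1 on the other strand, and Ccl27a, a skin chemokine that binds Ccr10, at −0.08 ± 0.32. Ccl22, a dendritic cell ligand of Ccr4, was at 0.47 ± 0.34.

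**Figure D3:**
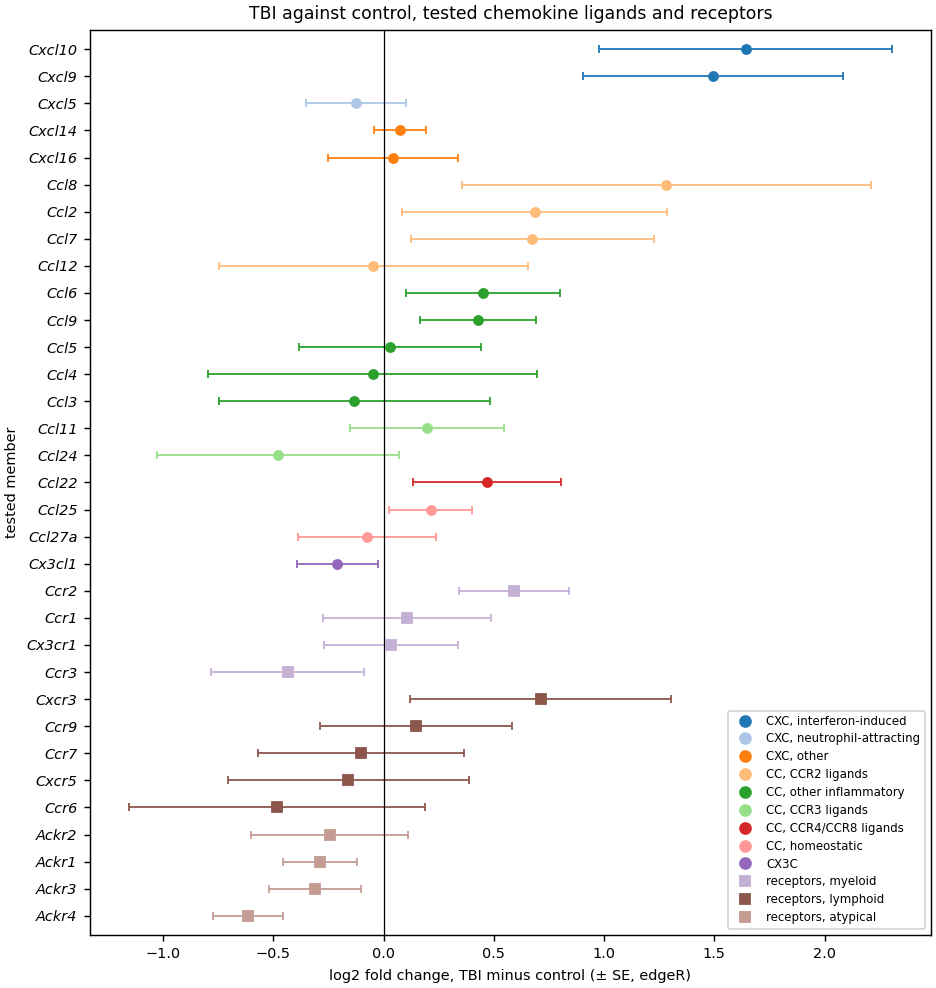
Log2 fold change of the tested members but 1 receptor (TBI minus control, bars ± SE, edgeR), with circles for ligands and squares for receptors, grouped by role. Cxcl10 and Cxcl9 stand at 1.64 and 1.49, and the 4 atypical receptors lie between −0.62 and −0.24.

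The 4 atypical receptors all had lower estimates after TBI. Ackr4, which scavenges Ccl19, Ccl21 and Ccl25 (ENSMUSG00000079355, chromosome 9, 104084157 to 104126933, minus strand), measured 26.2, 24.3 and 22.7 CPM in controls 1 to 3 and 18.2, 18.4, 14.0 and 12.96 CPM in TBI 1 to 4. Every TBI library lay below every control, as for 5.38% of all genes tested and for 1 of 14 tested receptors. Control libraries averaged 24.4 ± 1.75 CPM (SD, n = 3) against 15.9 ± 2.84 CPM (SD, n = 4), a log2 fold change of −0.62 ± 0.16 (adjusted p = 0.447 in edgeR, 0.0934 in DESeq2). Leaving out each library in turn gave −0.71 to −0.53. Acad11 shares 479 of the 5380 exon bases of Ackr4 on the other strand and stood at 0.39 ± 0.26, the opposite sign.

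Ackr1, which holds chemokines on the wall of small veins and on erythroid cells, measured 38.5, 32.5 and 29.8 CPM in controls and 31.9, 26.0, 31.0 and 21.2 CPM after TBI. TBI 2 and TBI 4 lay below all controls and the others among them (−0.29 ± 0.17, adjusted p = 0.75 in edgeR). Cadm3 shares 361 exon bases with Ackr1 on the same strand and stood at −0.02 ± 0.18. Ackr3, which scavenges Cxcl12, was at 20.4, 23.1 and 26.6 CPM in controls and 13.8, 16.3, 20.2 and 25.1 CPM after TBI. TBI 4 lay within the controls and the other TBI libraries below them (−0.31 ± 0.21). Ackr2, which degrades inflammatory CC chemokines, was at −0.24 ± 0.36 and turned to 0.14 without control 3.

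As a sum, the atypical receptors took 88.5, 84.4 and 86.7 CPM in controls and 66.5, 65.2, 71.4 and 63.7 CPM in TBI 1 to 4. All TBI sums lay below all control sums, and TBI 1 was not apart. Of the 4 genes, 1 (Ackr4) had every TBI library below every control, as did 5.38% of all genes tested. The 10 tested and 7 untested leukocyte receptors summed to 108 to 136 CPM in controls and 228, 181, 101 and 124 CPM after TBI. Much of that sum was Ccr2, which averaged 70.4 CPM in controls, where the sum averaged 121 CPM. The 10 tested leukocyte receptors split 6 higher and 4 lower. Beside the atypical receptors, 7 of 7 endothelial markers had higher estimates after TBI. Over all genes tested 54.4% of estimates were higher and 45.6% lower. The endothelial sums were 260 to 305 CPM in controls and 276, 277, 380.5 and 338 CPM in TBI 1 to 4. TBI 1 and TBI 2 thus lay within the controls, and TBI 3 and TBI 4 above them. The 6 marrow stromal markers split 3 higher and 3 lower, from Adipoq at 0.60 ± 0.24 to Pdgfra at −0.52 ± 0.10 (0 called in edgeR; 1, Pdgfra, in DESeq2). The 7 osteoblast markers all had lower estimates (median −0.75; 0 called in edgeR, 3 in DESeq2), with sums of 8530.3 to 14891 CPM in controls and 5857 to 7981 CPM after TBI. So did the 6 erythroid markers (median −0.76; 0 called in edgeR, 5 in DESeq2). The part of these cell types in the Ackr values was not tested.

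**Figure D4:**
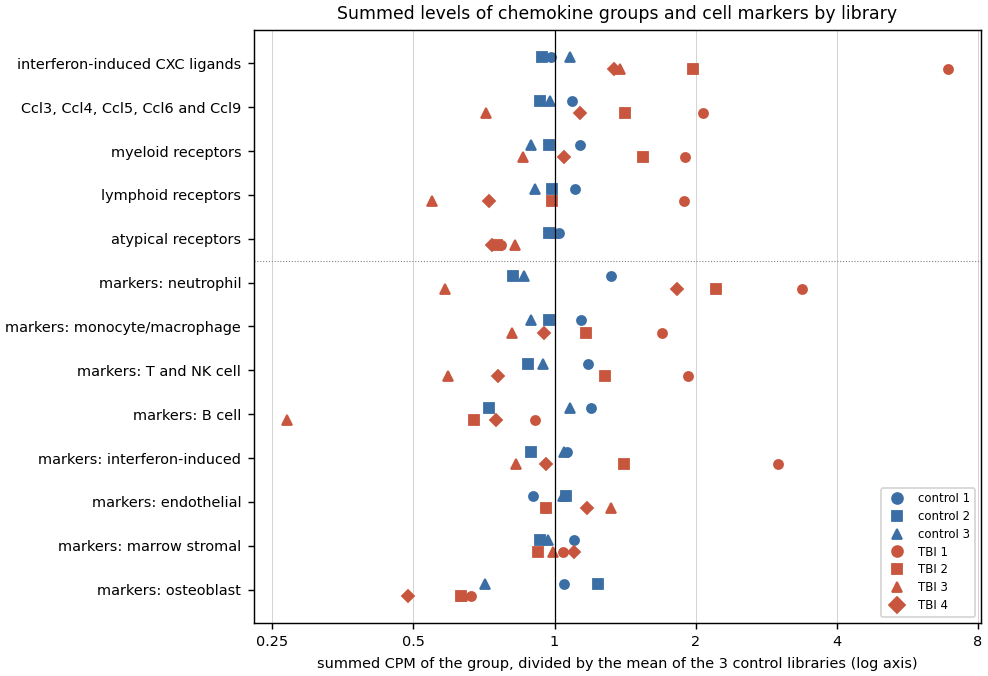
Summed CPM of 5 chemokine groups (above the dotted line) and 8 marker lists (below), each divided by its mean in the 3 control libraries, on a log axis with 1 point per library. Interferon-induced ligands reach 6.91 in TBI 1, and atypical receptors lie between 0.736 and 0.824 in all 4 TBI libraries.

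The receptors grouped here as lymphoid, not all of them particular to lymphocytes (Xcr1 and Ccr7 are among them), were low. As a sum of 10 genes they took 4.61 to 15.9 CPM, lowest in TBI 3 and highest in TBI 1. Cxcr5, which guides B cells to follicles, was at 2.53, 2.77 and 2.55 CPM in controls and 3.91, 2.94, 0.43 and 2.00 CPM after TBI. TBI 3 was far below the other libraries and TBI 1 and TBI 2 above the controls (−0.16 ± 0.55; 0.18 without TBI 3). Ccr6 was at 0.41, 0.63 and 0.63 CPM in controls and 0.82, 0.43, 0.05 and 0.21 CPM after TBI, and again TBI 3 was lowest and TBI 1 highest (−0.48 ± 0.67). Ccr7, which brings lymphocytes and dendritic cells into lymph nodes, was at −0.10 ± 0.47 and Ccr9 at 0.15 ± 0.44. Exons of Cxcr5 share 110 bases with Bcl9l on the other strand, and those of Ccr9 share 1932 bases with an overlapping transcript and 22 with Slc6a20a (−0.40 ± 0.15), both on the other strand. On its own strand Ccr9 shares 269 exon bases with the lincRNA Gm17200, which strand cannot separate. The 10 B-cell markers summed to 181 to 298 CPM in controls and to 227, 168, 67.0 and 187 CPM in TBI 1 to 4. The part of B-cell content in the Cxcr5 and Ccr6 values was not tested.

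The 30 untested members had 0 to 70 counts each over all 7 libraries. Of the ligand entries, 11 had 0 counts in all 7 libraries: Ccl1, Ccl20, Ccl26, Ccl27b, Ccl21a and Ccl21c and further copies of Ccl19, Ccl21a, Ccl21b and Ccl27. Of the 64 entries, 7 are copies on unplaced scaffolds of the assembly, 6 of them at 0, and near-identical copies such as those of Ccl19, Ccl21 and Ccl27 can lose reads that match several places. Cxcl13, a B-cell attractant, was at 1.30 CPM in TBI 1 and 0.170 to 0.542 CPM in the other libraries. Ccl19, Ccl28, Xcl1, Ccl17, Cxcl17, Ccl27 and Ccl21b had 48, 46, 50, 12, 4, 5 and 3 counts over all libraries. The untested receptors Cxcr6, Ccr10, Ccr4, Xcr1 and Ccr1l1 had 68, 23, 21, 21 and 8.

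TBI 1 was the highest of the 7 libraries for 12 of 20 tested ligands (60.0%) and 8 of 14 tested receptors (57.1%), against 20.5% of all genes tested. TBI 3 was the lowest for 4 ligands (20%) and 5 receptors (35.7%), against 17.1% of all genes. TBI 4 was the lowest for 5 ligands (25%) and 4 receptors (28.6%), against 21.6% of all genes, and control 3 for 5 ligands (25%) and 2 receptors (14.3%), against 10.9%. The 4 atypical receptors were not among those highest in TBI 1.

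Relatives outside the members and genes downstream of the receptors showed no called change either. Of the 9 relatives, 6 had higher and 3 lower estimates and 0 passed in edgeR (0 at an unadjusted p under 0.05, 0 in DESeq2). Cxcr2, the neutrophil receptor, was at 0.96 ± 0.55, and the platelet chemokines Ppbp, itself a Cxcr2 ligand, and Pf4 at 0.58 ± 0.39 and 0.39 ± 0.35. In controls Cxcl12, Ppbp and Pf4 averaged 437, 429 and 174 CPM, beside 125 to 133 CPM for the sum of all member ligands. Control 1 was high for both platelet genes. Ppbp measured 720, 280 and 287 CPM in controls 1 to 3, and Pf4 263, 131.5 and 127.4 CPM. In control 3 Pf4 lay below the ligand sum of 133.4 CPM. Cxcl12, which retains blood cells in marrow, was at 0.10 ± 0.25 and its receptor Cxcr4 at 0.02 ± 0.23. The receptors Ccrl2, Cmklr1 (which binds chemerin), Gpr182 and Pitpnm3 were at −0.08 ± 0.16, −0.22 ± 0.20, 0.28 ± 0.24 and −0.32 ± 0.27. The 27 signalling genes included G-protein subunits, PI3-kinase gamma, Rac and its activators, arrestins, receptor kinases and RGS proteins. Of these, 21 were higher and 6 lower, with a median of 0.21. Over all genes tested 54.4% were higher, with a median of 0.03. The 27 genes summed to 2182 to 2791 CPM in controls and to 3326, 2816, 2105 and 2314 CPM in TBI 1 to 4. For relatives and signalling genes together the median was 0.04 without TBI 1. The part of leukocyte content in these values was not tested. Of the 27, 0 passed in edgeR and 0 in DESeq2. In edgeR 1 of the 27 had an unadjusted p under 0.05, against 7.34% of all genes tested. That 1 gene was Rgs16, which shuts off G-protein signals, at −0.71 ± 0.26, with 2.26 ± 0.36 CPM in controls (SD, n = 3) and 1.38 ± 0.27 CPM after TBI (SD, n = 4).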

How the data were processed

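Messenger RNA libraries from whole femurs (3 control, 4 TBI) were made with a stranded mRNA kit after Trizol and column extraction, per the labels' protocols. The authors deposited raw read counts per Ensembl gene. STAR, DESeq and GRCm38 are named in the submitters' processing notes. The counter, its strand setting and its treatment of multiply mapped reads were not given in the sources used here. The authors' normalized table was not used here. Symbols and exon lengths came from GENCODE M21 (GRCm38), which matched 99.5% of identifiers.

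Counts were filtered with filterByExpr (17144 genes left), scaled by TMM and tested with edgeR 4.0.16 (glmQLFit, glmQLFTest, R 4.3.3), with Benjamini-Hochberg adjustment over all genes and a threshold of 0.05. SE is the estimate divided by the root of its F statistic. RPKM is CPM per kilobase of merged exons. In simulated counts of this comparison (16770 genes tested), edgeR found 1 of 67 altered genes at a 1.5-fold difference, 16 of 67 at 2-fold and 55 of 66 at 4-fold, and made 10 false calls.

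Alternatives were RLE and upper quartile scaling, no filter, 1 CPM in 3 libraries, DESeq2 1.42.0 (335 genes without an adjusted p), limma-voom 3.58.1, the replicate number as a block, leaving out each library and a wider threshold of 0.1. Leaving out TBI 3 and TBI 4 was added after seeing the data, and so was every alternative for the relatives and signalling genes. Members and gene lists were chosen with earlier results of these data known. Of the members, 1 tested receptor is counted in the totals but not reported here by name or value, and the others are named. Values in every library are given for members with an unadjusted p under 0.05, the 6 ligands and 5 receptors highest in RPKM, the 2 largest estimates in each direction per class, and members whose groups do not overlap. Library values of Cxcr5, Cxcl13 and Ccr8 were added once their values had been seen. No library was a copy of another: within groups, chi-square per degree of freedom was 27.2 or more.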

Additional observations from a re-analysis of the deposited data

Results flagged for a closer look

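Among the 4 TBI libraries, TBI 1 stood apart for 2 of the 34 tested members, by the gap between the highest library and the next, divided by the range of the group and set against a limit of 0.829. This ratio was 0.924 for Cxcl9 and 0.902 for Ccl8. For independent groups of normally distributed values, chance gives such a gap in about 1 in 20 groups. The 2 of 34 found is near that rate. CPM was used without a log and all members share the same 4 libraries, so the rate is only nominal here.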

How the results depend on the processing

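Of the ligands, the receptors and the 36 relatives and signalling genes, 0 were called under each alternative. Over all genes, DESeq2 called 103 and every other alternative 0. Member fold changes were recomputed under every alternative but the wider threshold, which leaves them as they are. Of these 498 values, 451 kept their direction and 47 turned, in 16 members. An adjusted p of 0.05 was passed by 0 of them (smallest 0.0934, Ackr4 in DESeq2). The self-test recovered few 2-fold changes, so smaller differences could not be shown here. With each library left out, the ligand median lay between 0.09 and 0.27, the receptor median between −0.23 and 0.17, and that of relatives and signalling genes between 0.04 and 0.31. The members that turned had these ranges with each library left out: Ackr2 −0.47 to 0.14, Ccl11 −0.027 to 0.56, Ccl12 −0.62 to 0.31, Ccl27a −0.26 to 0.16, Ccl3 −0.83 to 0.16, Ccl4 −0.39 to 0.27, Ccl5 −0.35 to 0.27, Ccl8 −0.23 to 1.87, Ccr1 −0.39 to 0.31, Ccr7 −0.32 to 0.22, Ccr9 −0.31 to 0.43, Cx3cr1 −0.21 to 0.19, Cxcl16 −0.21 to 0.21, Cxcl5 −0.26 to 0.022 and Cxcr5 −0.52 to 0.18. Without TBI 3 and TBI 4 together, Ccl11 turned to −0.31, Ccl12 to 0.29, Ccl3 to 0.36, Ccl4 to 0.55, Ccr6 to 0.16, Ccr7 to 0.085, Cxcl5 to 0.076 and Cxcr5 to 0.36. With upper quartile scaling Ccl5 turned to −0.014 and Cx3cr1 to −0.0054, and in limma-voom Ccl5 turned to −0.091, Ccr1 to −0.038 and Cx3cr1 to −0.026. The cause was not tested. With the replicate number as a block, 0 genes were called, and Ccl11 turned to −0.00061, Ccl12 to 0.28, Ccl3 to 0.13, Ccl5 to −0.030 and Cxcl5 to 0.018. Replicate number 4 occurred only in TBI, so TBI 4 added nothing to the estimates of that fit. Leaving out TBI 4 alone, with no block, gave −0.027 for Ccl11, 0.31 for Ccl12, 0.16 for Ccl3 and 0.022 for Cxcl5. These turns therefore say nothing about pairing. The labels do not state that samples of the same number are paired. Their deviations from the group means correlated at 0.55, −0.03 and 0.32 for numbers 1 to 3. Samples of unlike number correlated at −0.45 (control 3 with TBI 1) to 0.39 (control 3 with TBI 4). Whether same-numbered samples were paired was not tested.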
